A study of Rattus norvegicus with 20 samples.

Results

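The cytochromes P450 of families 1 to 4 were followed in foetal rat testis on 1-colour Agilent arrays. A probe counted as a member if the gene name printed for it on the array began with Cyp, a family number from 1 to 4, a subfamily letter and a gene number. This rule, which uses names and no measured value, gave 53 probes for 44 gene names, out of 41012 probes and 35752 gene names in all. Names are given as on the array, with the current RefSeq symbol in brackets where it differs, and the accessions of 46 of the 53 probes had such a symbol. The name Cyp2c, which has no gene number, lies outside the rule.

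Testes came from male foetuses of Han Wistar dams, and each array held RNA from a litter pool of the testes of 3 or more pups (6 testes). Dams received corn oil (Control), DEHP, which is di(2-ethylhexyl) phthalate, MEHP, its monoester, which keeps 1 of the 2 alcohols, TOTM, a trimellitate triester of the same alcohol, or a compound labelled only EHO. All 4 compounds were given by gavage daily at 500 mg/kg from gestation day 12 to day 19, and corn oil was the vehicle. Each group has 4 arrays, each group on a slide of its own, so that the effects of slide and of compound cannot be told apart.

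P450 enzymes are haem monooxygenases of the endoplasmic reticulum that take electrons from the reductase Por and, for some reactions, from cytochrome b5. In adult liver, members of families 1 to 3 oxidise drugs, pollutants and steroids, while family 4 hydroxylates fatty acids at or near the end of the chain. Their hepatic genes are classic targets of ligand-activated regulators: the aryl hydrocarbon receptor for the Cyp1 genes, CAR and PXR for Cyp2b and Cyp3a, and PPAR alpha for Cyp4a. DEHP and MEHP are known as activators of PPAR alpha in rat liver.

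Upstream sequences are shown for 5 members that differ in how many arrays detected them, that is, gave a signal well above background: Cyp1b1, Cyp4f6 and Cyp2j4 were detected on all 20 arrays, Cyp4a12 (Cyp4a8) on 14 and Cyp2c13 on none. Each is the 250 bases before the RefSeq start on GRCr8, written 5′ to 3′ on the strand of the gene, with every CG dinucleotide in capitals. Cyp1b1 lies on the plus strand of chr6:21094315-21094564, Cyp4f6 on the minus strand of chr7:12708379-12708628 and Cyp2j4 on the minus strand of chr5:116323043-116323292. Cyp4a8 lies on the minus strand of chr5:133970227-133970476 and Cyp2c13 on the minus strand of chr1:248787189-248787438.
Cyp1b1: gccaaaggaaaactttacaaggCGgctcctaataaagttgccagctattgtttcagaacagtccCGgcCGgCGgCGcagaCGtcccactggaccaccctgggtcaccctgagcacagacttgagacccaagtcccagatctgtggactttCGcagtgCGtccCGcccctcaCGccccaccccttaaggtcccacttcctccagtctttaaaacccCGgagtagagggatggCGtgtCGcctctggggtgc
Cyp4f6: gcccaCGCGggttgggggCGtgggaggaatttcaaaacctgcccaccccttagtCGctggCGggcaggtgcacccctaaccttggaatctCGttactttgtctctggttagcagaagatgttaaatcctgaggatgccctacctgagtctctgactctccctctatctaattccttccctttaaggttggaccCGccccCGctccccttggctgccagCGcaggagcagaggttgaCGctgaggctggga
Cyp2j4: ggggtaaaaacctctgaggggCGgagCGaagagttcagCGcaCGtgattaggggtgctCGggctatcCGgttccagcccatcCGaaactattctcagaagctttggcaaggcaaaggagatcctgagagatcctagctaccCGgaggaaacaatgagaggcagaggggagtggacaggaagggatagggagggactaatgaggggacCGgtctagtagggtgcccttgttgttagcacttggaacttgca
Cyp4a8: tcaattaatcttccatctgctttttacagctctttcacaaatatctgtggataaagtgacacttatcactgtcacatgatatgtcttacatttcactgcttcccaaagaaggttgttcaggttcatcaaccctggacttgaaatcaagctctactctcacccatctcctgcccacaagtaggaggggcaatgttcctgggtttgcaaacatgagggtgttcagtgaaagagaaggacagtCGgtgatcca
Cyp2c13: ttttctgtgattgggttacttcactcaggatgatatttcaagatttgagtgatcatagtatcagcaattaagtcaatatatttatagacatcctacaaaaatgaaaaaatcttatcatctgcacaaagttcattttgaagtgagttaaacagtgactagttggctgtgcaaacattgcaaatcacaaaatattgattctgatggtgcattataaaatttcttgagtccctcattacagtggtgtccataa

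These windows hold 13, 10, 9, 1 and 0 CG dinucleotides in that order. Windows were found for 39 of the 45 gene symbols behind the 53 probes. Cyp1a1, Cyp4f4 and Cyp4a22 (Cyp4a1) had no window, so the counts of letters below do not cover these genes. The 8 windows of genes detected on all 20 arrays had a median of 9 CG dinucleotides and 56.4% G and C. The 23 windows of genes detected on some arrays had medians of 1 and 46.4%, and the 8 windows of genes detected on none had medians of 3 and 45.2%. All 33469 windows of the RefSeq table had medians of 5 and 51.2%. The letters GCGTG, the core bound by the aryl hydrocarbon receptor, were searched on both strands, where the reverse complement is CACGC. They occurred in 5 of the 8 windows of genes detected on every array and in 4 of the other 31, against 25.9% of all windows. In Cyp1b1 they begin 81 and 20 bases before the start. TATAAA occurred on either strand in 11 of the 39 windows, against 12.9% of all windows, and Cyp2c13 has it 170 and 41 bases before the start. The DR1 repeat of the consensus receptor site, the form bound by PPAR alpha with its partner RXR, was in 0 of the 39 windows and in 0.0508% of all windows. A match is a description of these letters and not a binding site.

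Signal was taken as detected where the scanner software marked it well above the local background, and levels are log2 signal minus the 75th percentile of the array, so that a probe at 0 lies at that percentile. Over all probes, 63.5% to 79.4% were detected on the arrays of Control, DEHP, MEHP and TOTM, and 45.5% to 63.0% on the EHO arrays, where the 75th percentile of the log2 signal was also lower, at 7.67 to 7.97 against 8.03 to 8.42 elsewhere. MEHP 1 and MEHP 2 differed by 0.789 times the noise between repeated spots, less than sampling noise. Their mean was taken as 1 sample, so that n = 3 in the MEHP group. MEHP 3 lay nearest to Control 2, at 1.29 times that noise against 3.87 to 4.74 for the other MEHP arrays. MEHP 4 lay nearest to DEHP 3, at 1.37 times the noise against 2.10 or more for the other MEHP arrays. The marker Alb of liver stood at 2.11 on Control 2 and 2.23 on MEHP 3, at 1.04 on DEHP 4 and at 2.47 on EHO 3, and between -4.32 and -0.67 on the other 16 arrays. The p-values measure the spread between litter pools, with 1 estimate per gene shared by all 5 groups. Their precision is limited by the number of arrays. In whole testis fewer cells of a type and less RNA per cell cannot be told apart.

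Most of these P450 genes were weakly detected in the foetal testis. Of the 53 probes, 10 were well above background on all 20 arrays, which is 18.9%, against 43.0% of all probes. No array detected 11 of the 53, which is 20.8% against 17.4% of all probes. The test needed a probe above background on all arrays of 1 or more groups, and 26 probes for 23 genes passed. That is 49.1% of member probes against 68.6% of all probes.

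In family 1 the genes differed. Cyp1a1, the standard target of the aryl hydrocarbon receptor, has 10 spots per array and was not well above background on any of the 20 arrays, in any group. Cyp1b1, a P450 of tissues outside the liver that oxidises oestrogens and aromatic hydrocarbons, was detected on all 20 arrays by both of its probes. Cyp1a2, an enzyme of liver, was detected on 16 arrays by 1 probe and on none by the other.

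Family 2 is the largest, with 33 probes for 26 genes, and 4 probes were detected on every array. Those belong to Cyp2e1, which oxidises ethanol and small solvents, to Cyp2j4, whose subfamily forms epoxides of arachidonic acid, to Cyp2t1 and to Cyp2d22 (Cyp2d4). The members never detected in this family were Cyp2c13, Cyp2c23, Cyp2c40 (Cyp2c12) and Cyp2r1, a vitamin D hydroxylase. In family 3, known for oxidising drugs and testosterone in liver, 0 of 5 probes were detected throughout, and Cyp3a13 (Cyp3a9) was never detected. In family 4, 4 of 10 probes were detected on every array, all of them Cyp4f genes, whose products hydroxylate leukotrienes and long fatty acids. Cyp4a14 (Cyp4a3) and Cyp4x1 were never detected, and Cyp4a22 (Cyp4a1), the main peroxisome proliferator target of rat liver, was well above background only on 1 TOTM array.

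Neighbouring genes were alike in detection in some gene clusters and not in others, by probe positions on the rn4 build. The 4 Cyp4f probes lie between positions 13133749 and 13609163 of chromosome 7, and all 4 were detected on every array. The 6 probes of Cyp4a, Cyp4b1 and Cyp4x1 between 135510230 and 135922305 of chromosome 5 included none detected on every array. On chromosome 1, between 81185388 and 82232823, 1 of 11 Cyp2 probes was detected on every array, that of Cyp2t1. The 5 Cyp2d probes on chromosome 7 included 1 detected on every array, that of Cyp2d22, and the 3 Cyp2j probes on chromosome 5 included 1, that of Cyp2j4. The file annotates these probes by gene and position only, and exon or UTR membership was not used here.

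**Figure D1:**
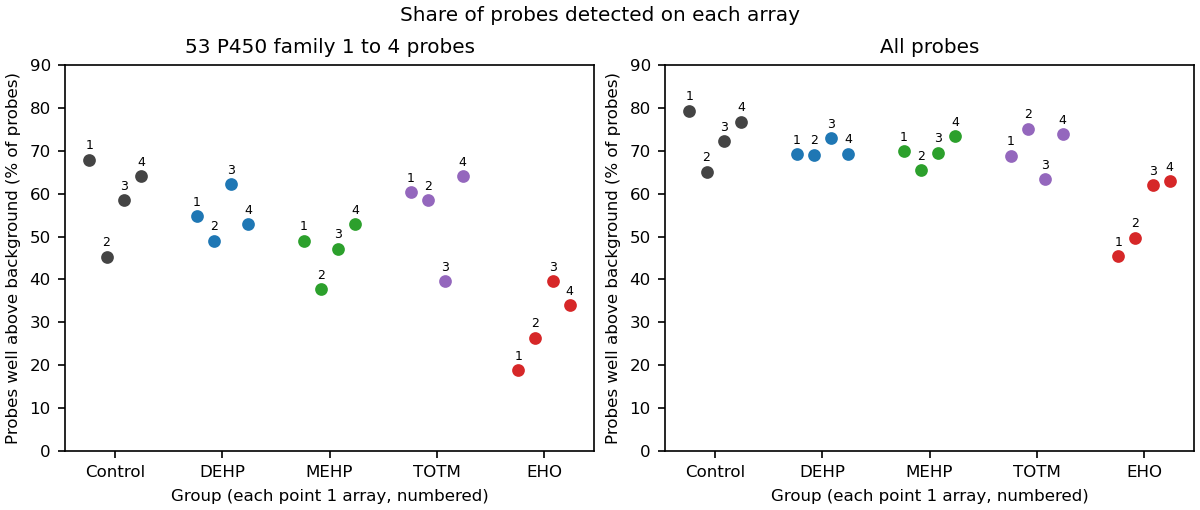
Each point is 1 array, numbered by replicate, placed by the share of probes well above background, in percent, for the 53 P450 probes (left) and for all 41012 probes (right). EHO arrays 1 and 2 are the lowest in both panels, at 18.9% and 26.4% of P450 probes, and EHO 4 at 34.0% is below every array of the other groups.

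Fewer P450 probes were detected with EHO. Control arrays 1 to 4 detected 36, 24, 31 and 34 of the 53 probes, and the EHO arrays 10, 14, 21 and 18. These groups did not overlap. The EHO mean of 15.8 ± 4.79 (SD, n = 4) against 31.3 ± 5.25 (SD, n = 4) in controls gave p = 0.0286 in a two-sided exact permutation test, the smallest p that 4 against 4 arrays allow. Detection over all probes was lower on the same arrays, with a mean of 55.1% with EHO against 73.4% in controls. The same permutation test gave it the same p of 0.0286. Its part in the result for the P450 probes was not tested. DEHP arrays detected 29, 26, 33 and 28 probes and overlapped the controls (exact permutation p = 0.486). MEHP arrays detected 26, 20, 25 and 28 (exact permutation p = 0.143, n = 3), and TOTM arrays 32, 31, 21 and 34 (exact permutation p = 0.657). In these 3 tests the smallest possible p was also 0.0286.

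No P450 gene of these families passed the test with the phthalates or the trimellitate. DEHP against Control gave 0 of 23 genes at an adjusted p under 0.05 in limma with Benjamini-Hochberg adjustment over all genes, against 0.00418% of the 23906 genes tested. For MEHP the count was again 0 of 23, against 0.975%, and for TOTM 0 of 23, against 0.00837%. Without MEHP 3 and 4, which leaves MEHP as 1 sample assumed to vary like the other groups, 0 of 23 members and 135 of all genes were called. At an unadjusted p under 0.05 there were 1, 2 and 2 of the 23 genes, against 2.42%, 5.28% and 8.23% of all genes. The members' median log2 difference from control was -0.15 for DEHP, -0.17 for MEHP and -0.01 for TOTM, and that of all genes was -0.04, -0.05 and -0.04. The 4 comparisons with control share the same control arrays.

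Of the genes tested, 8 were measured by a probe detected on all 20 arrays. Their 95% intervals for the log2 difference from control ran from -0.65 to 0.74 with DEHP, from -0.57 to 0.93 with MEHP and from -0.71 to 0.80 with TOTM, all within a 2-fold change either way. With EHO the intervals ran from -1.04 to 0.74.

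**Figure D2:**
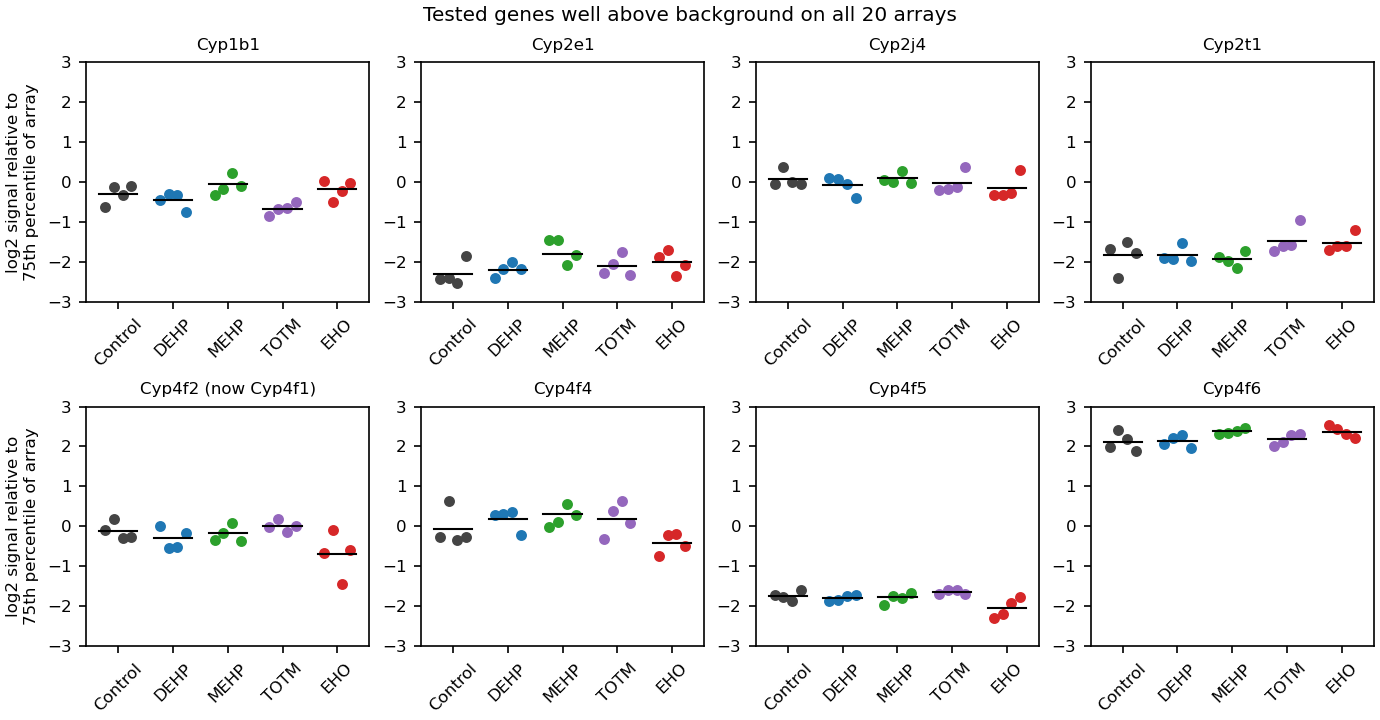
Points are single arrays and the bar is the mean of the samples, with MEHP 1 and 2 averaged first; the axis is log2 signal minus the 75th percentile of the array. Cyp4f6 lies between 1.89 and 2.53 on all 20 arrays, Cyp4f2 spreads from -1.46 to -0.10 within EHO, and the 4 TOTM arrays of Cyp1b1 lie below those of MEHP.

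Cyp1b1 was lower with TOTM than with EHO. Its tested probe stood at -0.63, -0.12, -0.33 and -0.11 on Control arrays 1 to 4, and at -0.85, -0.68, -0.64 and -0.51 on the TOTM arrays. The MEHP arrays were at -0.32, -0.18, 0.22 and -0.10, the EHO arrays at 0.03, -0.51, -0.22 and -0.03, and the DEHP arrays at -0.45, -0.31, -0.33 and -0.75. TOTM arrays lay below every MEHP array, as for 3 of 23 members and 16.5% of all genes, and overlapped the controls. The log2 difference of EHO from TOTM was 0.49 ± 0.16 (SE), with an adjusted p of 0.0399 in limma. This difference was called in 12 of 21 alternatives to the processing. It was not called when the percentile was taken over probes detected on all arrays, or on the arrays of the 2 groups alone. Leaving out 1 array of the 2 groups at a time lost the call in 4 of 8 cases. TOTM minus MEHP was -0.63 ± 0.17 (SE), with an adjusted p of 0.0842, and the difference of TOTM from Control, -0.38 ± 0.16 (SE), had an adjusted p of 0.580.

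The second Cyp1b1 probe was also lower with TOTM than with EHO. It read -1.88, -1.98, -2.09 and -2.31 with TOTM, below all 4 EHO arrays, and EHO minus TOTM was 0.65 ± 0.17 (SE), with an adjusted p of 0.0212 in limma among all probes. Against Control the probes differed, and over the 20 arrays they correlated at 0.15. The second probe read -1.77, -2.23, -1.64 and -2.20 in Control and -1.53, -1.72, -1.22 and -1.20 with EHO, a log2 difference of 0.54 ± 0.17 (SE). Tested among all probes, this difference had an adjusted p of 0.0387 in limma, while that of the tested probe was 0.12 ± 0.16 (SE), with an adjusted p of 0.586 over genes. The authors' deposited table lists the second probe at a signed fold of 2.00 with EHO (p = 3.24e-06) and 1.5 with MEHP (p = 0.0031). The fit here gave that probe 0.09 ± 0.19 (SE) with MEHP.

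Cyp2e1 did not pass the test with MEHP, although its mean was higher. Its 10 spots averaged -2.43, -2.40, -2.52 and -1.86 on the Control arrays and -1.45, -1.46, -2.09 and -1.84 on the MEHP arrays. The groups overlapped through Control 4 and MEHP 3, the array that lay nearest to a control array. The difference was 0.51 ± 0.20 (SE) on the log2 scale, with an adjusted p of 0.643. The authors' deposited table gives this gene a signed fold of 1.8 with MEHP (p = 1.1e-07). With DEHP, TOTM and EHO the difference was 0.10, 0.20 and 0.30, each within 2 standard errors of 0.

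Of the 4 Cyp4f genes, Cyp4f2 (Cyp4f1) and Cyp4f5 passed the test in 1 comparison, EHO against TOTM. Cyp4f5 was at -1.71, -1.59, -1.60 and -1.70 with TOTM and at -2.31, -2.19, -1.92 and -1.77 with EHO, groups that did not overlap, as for 4 of 23 members and 19.2% of all genes. The log2 difference was -0.40 ± 0.11 (SE), with an adjusted p of 0.0270 in limma, but it turned to 0.08 when arrays were scaled to their median. Cyp4f2 (Cyp4f1) read -0.03, 0.17, -0.14 and -0.01 with TOTM and -0.66, -0.10, -1.46 and -0.58 with EHO, a difference of -0.70 ± 0.22 (SE) with an adjusted p of 0.0393. Of 21 alternatives to the processing, Cyp4f5 was called in 10 and Cyp4f2 in 12. Cyp4f6 and Cyp4f4 passed in no comparison. Cyp4f4 ranged from -0.75 on EHO 1 to 0.64 on Control 2 and TOTM 3.

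Cyp2j4 differed from control by -0.14 with DEHP, 0.02 with MEHP, -0.10 with TOTM and -0.23 with EHO, with standard errors of 0.17 to 0.19. Cyp2t1 differed by 0.01, -0.10, 0.37 and 0.31 in the same order, and neither gene passed the test. The authors' deposited table lists Cyp2t1 with EHO at a signed fold of 1.68 (p = 0.00199). The authors' deposited table also lists the second probe of Cyp2d22 (Cyp2d4) with TOTM at a signed fold of 1.47 (p = 0.00421). The limma fit over all probes gave that probe a log2 difference of 0.47 ± 0.20 (SE) with an adjusted p of 0.560. No member is listed there with DEHP.

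Cyp4a11 (Cyp4a2), a fatty acid hydroxylase of the Cyp4a subfamily that PPAR alpha induces in liver, had its highest mean in controls. Control arrays stood at -2.14, -2.28, -2.15 and -1.92. DEHP arrays stood at -2.45, -2.40, -2.74 and -2.65, and the MEHP arrays at -2.47, -2.75, -2.82 and -2.48. TOTM arrays stood at -2.29, -2.54, -2.98 and -2.44, and EHO arrays at -2.94, -2.44, -2.19 and -2.52. The arrays of DEHP, MEHP and TOTM each lay below all 4 controls, whereas EHO 3 overlapped them. TOTM 1, at -2.29, lay only just below Control 2, at -2.28. The probe was not well above background on MEHP 2 and 3, on TOTM 3 or on EHO 1, 2 and 4. A lack of overlap of this kind was found for 3.03%, 7.4% and 7.12% of all genes in these 3 comparisons. The differences were -0.44 ± 0.17, -0.52 ± 0.18, -0.44 ± 0.17 and -0.40 ± 0.17 (SE) with DEHP, MEHP, TOTM and EHO, with adjusted p of 1.0, 0.441, 0.552 and 0.0745 in limma, so none was called. They all rest on the same 4 control arrays.

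With EHO 7 of the 23 genes were lower than in Control and 0 were higher, at an adjusted p under 0.05 in limma. Of all 23906 genes tested, 18.1% were called lower with EHO and 6.73% higher. Scaling arrays to their median gave 5 lower and 3 higher, and quantile normalization 7 lower and 1 higher. Of the 8 detected on every array of both groups 0 were called lower, against 5.38% of such genes. Of the other 15, which were not well above background on some EHO or Control array, 7 were called lower, against 39.2% of such genes. Detection on the EHO arrays itself sets this split, so both shares only describe where the calls lie. The 15 entered the test through groups other than EHO, so the filter itself leans toward calls lower with EHO. At an unadjusted p under 0.05 there were 14 of 23 genes, against 45.4%. The spread was estimated over all 5 groups together. Genes not detected on all 20 arrays varied more within EHO (median SD of the 15 members 1.08) than within the other groups (0.18 to 0.31). The shared estimate thus draws also on groups that vary less than EHO. Fitted on the Control and EHO arrays alone, 0 of 23 members and 3 of all genes were called.

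**Figure D3:**
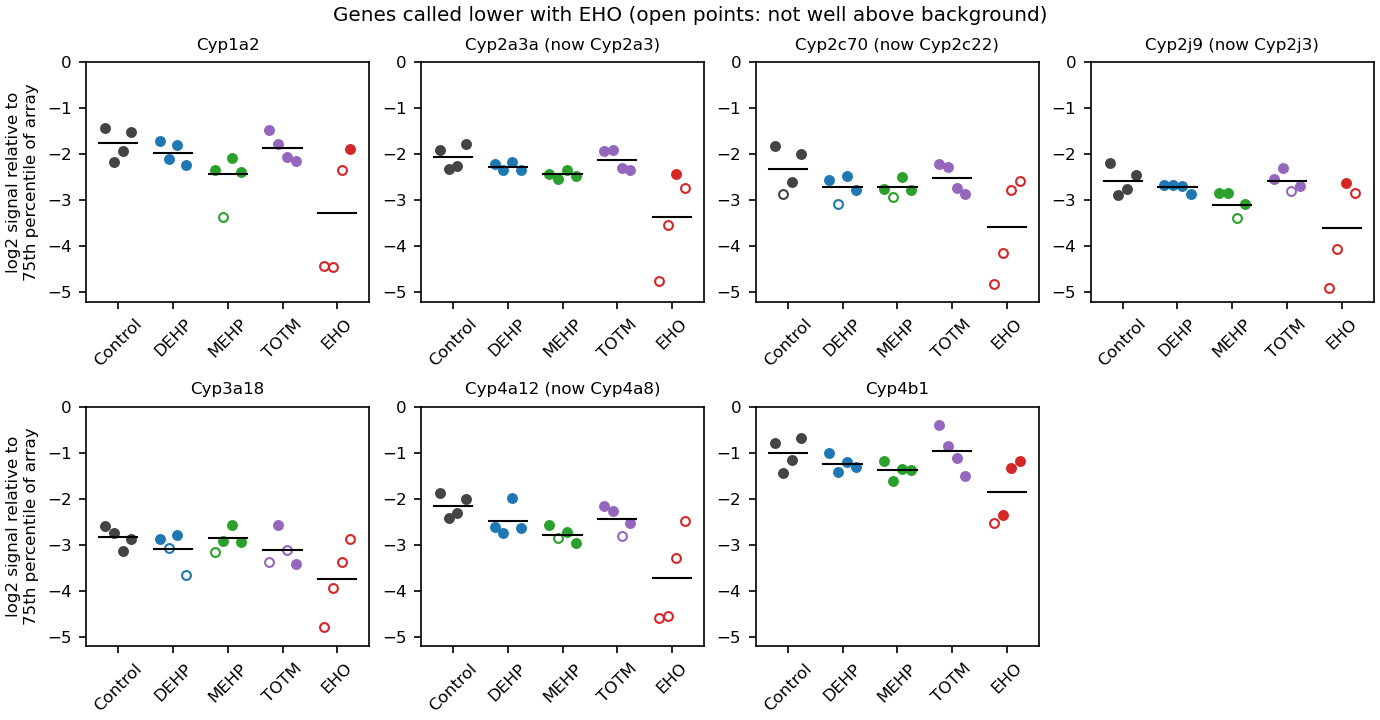
Log2 signal minus the array's 75th percentile is plotted for the 7 genes called lower with EHO; each point is 1 array, an open point was not well above background, and bars are group means. EHO arrays 1 and 2, the 2 leftmost red points, are the lowest of all 20 arrays for all 7 genes, while EHO 4 lies within the range of the other groups for 6 of them.

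Cyp4a12 (Cyp4a8), of the fatty acid hydroxylases, had the smallest p. Control arrays were at -1.89, -2.41, -2.32 and -2.0, and EHO arrays at -4.60, -4.55, -3.28 and -2.49, none of them well above background. The means were -2.16 in Control and -3.73 with EHO (adjusted p = 0.0142 in limma, on these measured values). The lowest signal well above background on each EHO array served as a floor, and lower values were raised to it. The means then differed 1.43-fold, a figure that takes no account of the spread or the scaling. Over the alternatives to the processing the log2 difference of Cyp4a12 ran from -1.99 to -0.28. DEHP arrays were at -2.61, -2.74, -1.99 and -2.64, MEHP arrays at -2.56, -2.86, -2.72 and -2.96, and TOTM arrays at -2.15, -2.26, -2.82 and -2.53. Cyp4a12 was also the 1 member lower with EHO than with DEHP (adjusted p = 0.0475 in limma), by 1.13-fold against that floor. This call was lost without any single DEHP array or without EHO 1.

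Cyp2a3a (Cyp2a3), of a subfamily expressed in nose and lung, was at -1.91, -2.31, -2.25 and -1.78 in Control. With EHO it was at -4.75, -3.53, -2.42 and -2.72, and only EHO 3 was well above background. The groups did not overlap, as for 3 of 23 members and 13.5% of all genes, and the log2 difference was -1.29 ± 0.34 (SE), with an adjusted p of 0.0247 in limma. Cyp1a2 was at -1.42, -2.18, -1.92 and -1.52 in Control and at -4.44, -4.44, -2.35 and -1.89 with EHO, where only EHO 4 was well above background. Its difference was -1.52 ± 0.45 (SE), with an adjusted p of 0.0338. The groups overlapped on EHO 4, and the other Cyp1a2 probe was never detected.

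Cyp2c70 (Cyp2c22) was at -1.82, -2.86, -2.60 and -2.0 in Control and at -4.82, -4.15, -2.78 and -2.59 with EHO (adjusted p = 0.0362 in limma). No EHO array was well above background, and against the floor the means differed 1.30-fold, again without regard to the spread. Over the alternatives the log2 difference ran from -1.59 to -0.25. Cyp3a18 was also not well above background on any of the 4 EHO arrays, at -4.79, -3.93, -3.37 and -2.89, against -2.59, -2.75, -3.14 and -2.87 in Control (adjusted p = 0.0481). There the floor gave no fold above 1. Cyp3a18 entered the test only through the Control arrays, the group it was then compared with.

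Cyp2j9 (Cyp2j3) read -2.18, -2.88, -2.76 and -2.46 in Control and -4.91, -4.06, -2.61 and -2.84 with EHO, a difference of -1.04 ± 0.36 (SE) with an adjusted p of 0.0467 in limma. Cyp4b1, a P450 of lung, was the best detected of the 7, with 3 EHO arrays well above background. It read -0.78, -1.45, -1.15 and -0.68 in Control and -2.54, -2.35, -1.33 and -1.18 with EHO, a difference of -0.83 ± 0.29 (SE) with an adjusted p of 0.0464. Of 20 alternatives to the processing, Cyp4a12 was called in 17, Cyp2a3a in 14, Cyp1a2 in 12 and Cyp2c70 in 11. Cyp4b1 was called in 9, Cyp2j9 in 8 and Cyp3a18 in 7. Normexp with quantile, quantile alone and median scaling each kept 4 of the 7 calls.

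The low values lay mostly on EHO arrays 1 and 2. Over the 15 genes not detected on all 20 arrays, the median log2 difference from the control mean was -2.34 on EHO 1, -1.49 on EHO 2, -0.32 on EHO 3 and -0.16 on EHO 4. For all 9164 such genes the medians were -2.08, -1.34, -0.17 and -0.10. Over the 8 P450 genes detected on all 20 arrays they were -0.13, -0.06, -0.09 and 0.15. Without EHO 1 and 2, 0 members and 214 of all genes were called. The detection of all probes on EHO 1 and 2 was 45.5% and 49.8%, and its part in the difference was not tested. The count of members moved with that of all genes when 1 array was left out. It was 0 without Control 1, 1 without Control 4, 4 without Control 3, 2 without EHO 1 and 3 without EHO 2, where 716, 1154, 3957, 822 and 1027 of all genes were called. It was 14 without EHO 3 and 13 without EHO 4, where 9921 and 10453 of all genes were called, against 5938 with all arrays.

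**Figure D4:**
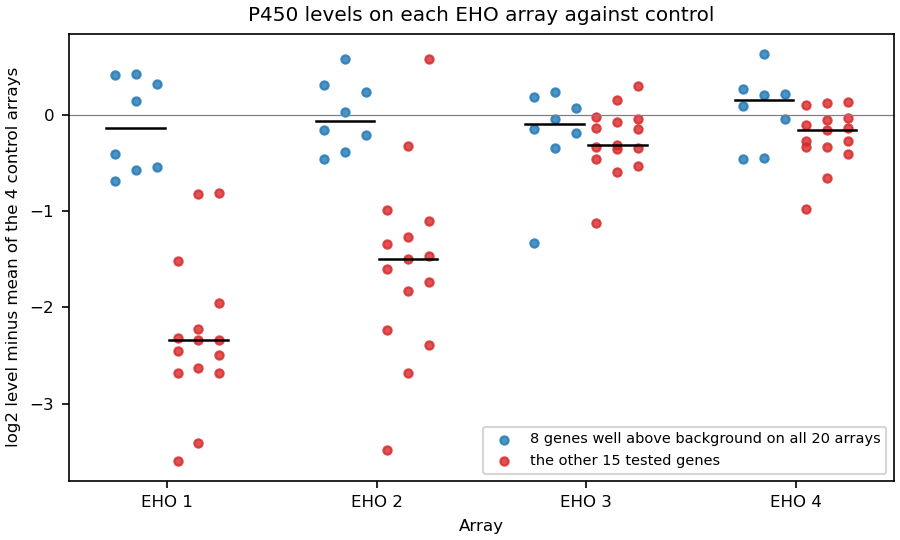
Each point is 1 of the 23 tested P450 genes on 1 EHO array, as the log2 level minus the mean of the 4 control arrays; blue points are the 8 genes detected on all 20 arrays, red points the other 15, and bars are medians. The red medians are -2.34 and -1.49 on EHO 1 and 2 and -0.32 and -0.16 on EHO 3 and 4, while the blue medians stay between -0.13 and 0.15.

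The control arrays themselves also kept an order among the rarely detected genes. In 11 of the 15 genes not detected on all 20 arrays Control 1 was the highest control, and in 12 of the 15 Control 2 was the lowest. Over all such genes the shares were 62.1% and 68.2%. Within groups, the median SD of the 15 genes was 0.31 in Control, 0.20 in DEHP, 0.18 in MEHP, 0.31 in TOTM and 1.08 in EHO. The 8 well-detected genes had median SDs of 0.20 to 0.25.

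Different probes of the same gene did not always move together on the EHO arrays. The tested probe of Cyp2d22 (Cyp2d4) read 0.20, -0.63, -0.27 and 0.06 in Control and -3.75, -1.76, -0.18 and -0.26 with EHO. Its other probe, detected on all 20 arrays, read -0.65, -1.19, -0.36 and -0.89 in Control and -0.57, -0.25, -0.77 and -0.63 with EHO, with no drop on EHO 1 or 2. Cyp2c7, a Cyp2c of rat liver, has 4 probes that were detected on 18, 9, 6 and 0 arrays. Its tested probe stood at -4.96 and -5.04 on EHO 1 and 2 and at -1.70 and -1.42 on EHO 3 and 4, with an adjusted p of 0.0514 in limma for the difference from Control. The pair of Cyp2j9 (Cyp2j3) probes went together, with a correlation of 0.89 over the 20 arrays.

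The remaining tested genes passed in no comparison. Cyp2b13 (Cyp2b21) and Cyp2b3, of a subfamily that phenobarbital induces in liver, differed from control with EHO by -1.03 ± 0.45 and -0.38 ± 0.25 (SE). Cyp2w1 differed by -0.94 ± 0.37 (SE), and Cyp3a3 (Cyp3a23-3a1) by -1.01 ± 0.50 (SE), with adjusted p of 0.0640 and 0.124 in limma. Cyp3a3 was not well above background on any MEHP array or on Control 2, and its difference of MEHP from Control was not called (adjusted p = 0.977 in limma). With lower MEHP values raised to the array floor, the means differed 1.56-fold, a figure that takes no account of the spread. In the other comparisons of DEHP, MEHP and TOTM with Control these 4 genes differed by -0.25 to 0.18. Of genes that did not enter the test, Cyp2u1 was detected on 11 arrays, Cyp2a1 on 9, Cyp2d26 (Cyp2d2) on 8 and Cyp3a62 on 5, and Cyp2d10, Cyp2c37, Cyp2a2, Cyp2c65, Cyp2d13, Cyp2g1 and Cyp3a11 on 3 or fewer. Cyp2b15 had 1 probe detected on 9 arrays and another on none. Many of these genes have close copies, and the share of a probe's signal that comes from a copy is uncertain.

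Compounds were also compared with each other at the same dose, in 6 pairs. MEHP against DEHP, a monoester against its diester, gave 0 of 23 genes (1.16% of all genes called). For the 8 genes detected on every array, the intervals of that difference ran from -0.57 to 0.83. TOTM against DEHP gave 0 of 23, against 0% of all genes, with intervals from -0.54 to 0.79. TOTM against MEHP gave 0 of 23, against 1.56%, with intervals from -0.98 to 0.94. At an unadjusted p under 0.05 these 3 pairs had 1, 0 and 2 genes, against 5.55%, 2.93% and 13.8%. EHO against MEHP gave 0 of 23, against 0.264%, with 6 genes at an unadjusted p under 0.05 against 24.1%, and EHO against DEHP gave the 1 gene named above, against 2.74% of all genes called lower, with 12 at an unadjusted p under 0.05 against 37.7%.

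EHO against TOTM gave 8 of 23 genes, 7 lower and 1 higher, against 13.2% lower and 8.5% higher of all genes, and 15 at an unadjusted p under 0.05, against 46.4%. The 7 were Cyp1a2, Cyp2a3a (Cyp2a3), Cyp2j9 (Cyp2j3), Cyp4a12 (Cyp4a8), Cyp4b1, Cyp4f2 (Cyp4f1) and Cyp4f5, and the 1 was Cyp1b1. Cyp2a3a (Cyp2a3) had the smallest adjusted p, 0.0233 in limma, at -1.92, -1.90, -2.30 and -2.33 with TOTM, all above the 4 EHO values. Without EHO 1 and 2 the count was 2, with 931 of all genes called against 5252 with all arrays. It was 0 without TOTM 1, 0 without TOTM 2, 2 without TOTM 3 and 5 without TOTM 4, where 2004, 1725, 2452 and 3913 of all genes were called. It was 1, 3, 15 and 16 without EHO 1, 2, 3 and 4, where 1583, 2438, 10649 and 10871 were called.

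Cyp2f2 (Cyp2f4), known for activating naphthalene in lung epithelium, ranged from -2.36 to 1.88 outside EHO, and its high values came from 3 arrays. It stood at 1.88 on TOTM 4, -0.27 on DEHP 3 and -0.35 on MEHP 4. The other DEHP arrays were at -1.78, -2.28 and -2.33, the other MEHP arrays at -1.85, -2.36 and -1.73, and the other TOTM arrays at -1.52, -1.66 and -1.88. Control arrays were at -1.43, -1.81, -1.85 and -1.44, and EHO arrays at -3.97, -2.62, -1.98 and -1.96. The difference from Control was 0.84 ± 0.72 (SE) for TOTM, with an adjusted p of 0.858 in limma, and without TOTM 4 it was -0.06.

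Genes of stratified epithelia were high on the same 3 arrays. After the values were seen, 6 such genes were looked at, and 4 of them were higher on each of the 3 arrays than on all 17 others. Krt10, a keratin of the upper epidermis, stood at 1.37 on DEHP 3, 1.40 on MEHP 4 and 3.07 on TOTM 4, and between -4.44 and -2.01 elsewhere. Kb1, another epidermal keratin, stood at 1.53, 1.58 and 2.85, and between -1.65 and -0.57 elsewhere. Lgals7 and Aqp3 did likewise, whereas Krt2-5 and Serpinb5 did not. Of 23765 genes with a value on every array, 32 were higher on these 3 arrays than on every other, and Cyp2f2 was the only member among them. The 3 arrays were those where Cyp2f2 was high, so its own place among the 32 was set beforehand. The part of other tissue in the Cyp2f2 values was not tested.

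**Figure D5:**
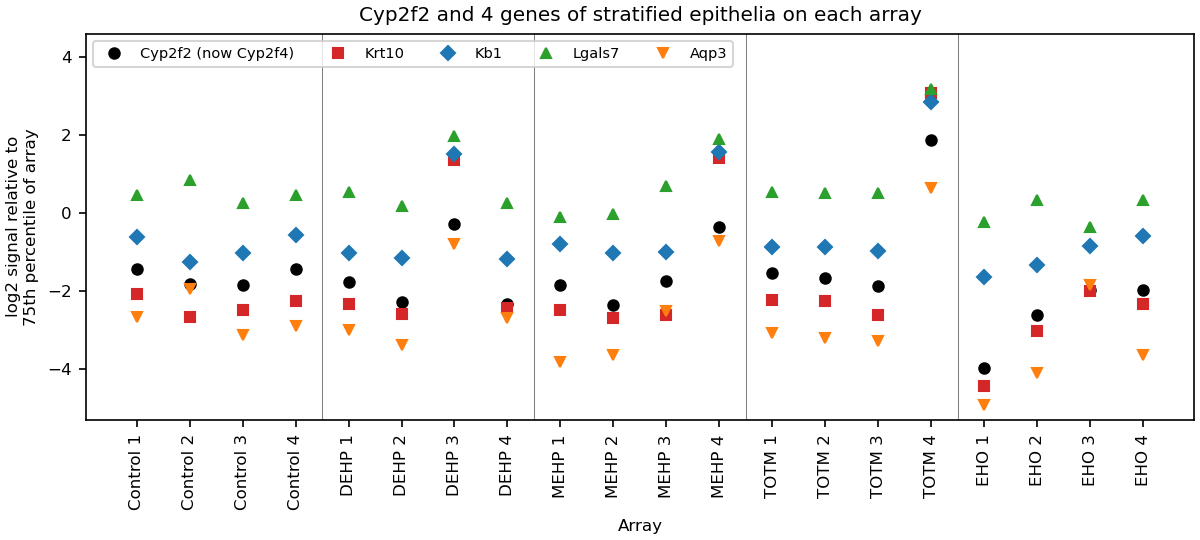
Log2 signal minus the array's 75th percentile is plotted for Cyp2f2 and 4 genes of stratified epithelia on each of the 20 arrays, grouped by compound. All 5 genes peak on DEHP 3, MEHP 4 and TOTM 4, where Cyp2f2 reads -0.27, -0.35 and 1.88.

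The regulators and partners of these enzymes were read from lists chosen with earlier results known. Of 10 genes for electron donors and haem supply, 10 were detected on all 20 arrays, among them Por and the cytochrome b5 genes. Against Control 0 of the 9 that could be tested passed with any compound, and their median difference with EHO was 0.22. The aryl hydrocarbon receptor list had 7 tested genes. Of these 1 was called lower with EHO, Arnt, the partner of the receptor (-1.32 ± 0.40, SE, adjusted p = 0.0355 in limma), and it was detected on 17 arrays. The share of all genes called lower with EHO was 18.1%. Ahr itself was at -0.75 ± 0.31 (SE), with an adjusted p of 0.0779.

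Among 10 tested nuclear receptors and cofactors, Ncor1, a corepressor, was higher with EHO (0.66 ± 0.13, SE, adjusted p = 0.00875 in limma), and Rxrg, a retinoid X receptor, lower (-0.64 ± 0.17, SE, adjusted p = 0.0280). Nr1i3, which encodes CAR, was at -1.60 ± 0.58 (SE, adjusted p = 0.0517), and Nr1i2, which encodes PXR, at -1.03 ± 0.38 (SE, adjusted p = 0.0537). Of the 9 conjugating enzymes and epoxide hydrolases, Sult1b1 (-1.58 ± 0.41, SE, adjusted p = 0.0236 in limma) and Nat2 (-1.0 ± 0.25, SE, adjusted p = 0.0206) were lower with EHO. Over all genes 18.1% were called lower and 6.73% higher with EHO. Of the 10 receptors and cofactors 5 were detected on all 20 arrays, and of these 9 genes 6. Of 10 fatty acid and PPAR alpha targets none passed with any compound, and their medians lay between -0.14 and 0.00. With DEHP, MEHP and TOTM none of the genes in these 5 lists passed.

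Markers of liver, where most of these P450 genes are best known, did not pass the test against Control. Of 12 liver genes 11 were tested and 0 passed with any compound against Control, 1 was lower with EHO than with TOTM, and the list's summed linear signal, in units of the array's 75th percentile, ran from 7.82 to 16.5 in Control, from 9.49 to 18.4 with DEHP, from 8.25 to 15.8 with MEHP, from 9.21 to 11.3 with TOTM and from 8.69 to 47.3 with EHO. The highest value belonged to EHO 3, whose Afp level was 5.10. On that array the 15 tested members not detected on all 20 arrays had a median log2 difference from the control mean of -0.32. The 8 members detected on all 20 had a median of -0.09 there. The part of liver tissue in the P450 values was not tested. Defining markers of foetal testis were present, with 7 of 10 Sertoli, 9 of 10 foetal Leydig and 8 of 10 gonocyte genes detected on all 20 arrays.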

How the data were processed

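Signal of 20 Agilent arrays was used. Per the file headers, the deposited intensity (processed signal) was background-subtracted and detrended within each array by Feature Extraction 9.5.3.1, and it was not scaled between arrays. Per the submitters' processing notes the software was version 9.5. The labels state 700 ng of RNA per labelling. The authors' deposited table gives a signed fold change (a score) and a p-value per probe, with threshold and tool not given in the sources used here; its block headed "EH" was taken as EHO.

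Each array was set to log2 intensity minus its 75th percentile over non-control probes, from the deposited values. Spots with outlier flags were left out of the tests; 1.24% to 1.27% of spots carried them on control arrays and 0.152% to 0.332% elsewhere. Probes above background on all arrays of 1 or more groups were kept (28133), with the probe of highest mean per gene name (24226 genes). The 5 groups were fitted together with limma 3.58.1 in R 4.3.3 (lmFit, eBayes), with Benjamini-Hochberg adjustment over all genes and calls at an adjusted p under 0.05. A probe with no array above background in a group was given a fold against the array floor, without its spread. Its p-value came from the measured values. The scripts were tested on simulated data. No columns of per-sample values were left unused (0).

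The genes named are the members called in any of 10 comparisons, in each comparison the 3 highest and 3 lowest differences among members detected on every array of both groups, and members of a list of known P450 genes. Members and lists were chosen with earlier results of these data known. The alternatives were other scalings and background correction, other filters, every probe, outlier spots kept, the positive-and-significant flag for detection, MEHP 1 and 2 kept separate, arrays of 2 groups only, the replicate number as a block, each array left out, and sets of arrays left out (EHO 1 and 2, MEHP 3 and 4). The percentile without outlier spots and the omission of DEHP 3, MEHP 4 and TOTM 4 were added after seeing the data.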

Additional observations from a re-analysis of the deposited data

Results flagged for a closer look

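Groups of 4 arrays were looked at for 21 named P450 genes (84 groups) and for the number of detected P450 probes (4 groups). In 7 of the gene groups 1 array was set apart from the other 3 by Dixon's ratio, and chance alone sets apart about 1 in 20 groups. Cyp2f2 stood at 1.88 on TOTM 4 against -1.88 to -1.52 on the other TOTM arrays. Cyp2j4 stood at 0.38 on Control 2 (others -0.04 to -0.01), at 0.29 on EHO 4 (others -0.33 to -0.27) and at 0.37 on TOTM 4 (others -0.19 to -0.13). Cyp4f4 stood at 0.64 on Control 2 (others -0.35 to -0.26) and at -0.22 on DEHP 4 (others 0.27 to 0.35). Cyp4a12 stood at -1.99 on DEHP 3 against -2.74 to -2.61 on the other DEHP arrays.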

How the results depend on the processing

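Over the alternatives, 192 counts of called genes or detection differences kept their direction and their size or side of the threshold, 52 counts moved by over 1.5 times, 3 detection tests missed the threshold and 1 detection difference turned. Among differences of single genes, 1239 kept their sign and side of the threshold. A call was lost in 155 and gained in 20, and the sign changed in 35. For DEHP, TOTM and MEHP against Control, MEHP against DEHP and TOTM against DEHP the count of called P450 genes was 0 under all alternatives, except 1 for MEHP against Control after normexp and quantile normalization. That setting called 2512 of all genes for MEHP against Control. For TOTM against MEHP the count was 1 with no filter and 1 with a filter on all 20 arrays, where 351 and 576 of all genes were called.
For EHO against Control (7) it was 12 with no filter, 13 with outlier spots set aside from the percentile, 1 without DEHP 3, MEHP 4 and TOTM 4, 3 without MEHP 3 and 4, and 0 with the filter on all 20 arrays, without EHO 1 and 2, or with arrays of the 2 groups only. Over all genes the calls in these settings were 10536, 8110 and 1196 in the first 3, and 2165, 214 and 3 in the last 3. For EHO against DEHP (1) it was 2 with median scaling and 3 with no filter. Over all genes 2140 and 2695 were called there, against 1581 in the main fit. It was 0 with normexp, quantile normalization, the percentile over probes detected on all arrays, the filter on all 20 arrays, 2 groups only, or without EHO 1 and 2 or the 3 arrays. In that order the calls over all genes were 1803, 2026, 1422, 1700, 244, 324 and 426. For EHO against TOTM (8) it was 4 with normexp, 5 with quantile normalization, 4 with median scaling, 3 with the filter on all 20 arrays, 2 without EHO 1 and 2, and 0 with 2 groups only or without the 3 arrays. In that order the calls over all genes were 4220, 4790, 5921, 3240, 931, 888 and 1617. Arrays with the same replicate number correlated at -0.04 on average (-0.68 to 0.48), so the numbers do not pair them. With the replicate number as a block the counts were 2 for EHO against Control, 0 against DEHP and 5 against TOTM. Over all genes 2342, 941 and 2876 were called there.
Leaving out 1 array at a time gave 0 to 14 calls for EHO against Control, 0 to 13 against DEHP, 0 to 7 against MEHP and 0 to 16 against TOTM, and 0 in the other comparisons. The highest counts, 14, 13, 7 and 16, came with 9921, 8887, 4152 and 10871 of all genes called. The difference in detected probes from Control ran from -17.9 to -13.6 with EHO, from -4.67 to -0.67 with DEHP, from -8.33 to -4.33 with MEHP and from -4.17 to 1.08 with TOTM, where it turned without TOTM 3.
Some small differences changed sign. Cyp4f6 turned in DEHP against Control (-0.22 with normexp, -0.25 with quantile, -0.044 with the percentile over probes detected on all arrays, -0.066 with outlier spots set aside, -0.039 without the 3 arrays, and -0.060 to 0.11 without 1 array), in MEHP against Control (-0.029 and -0.023) and in EHO against Control (-0.064 and -0.10). Cyp4f5 with EHO turned against Control (0.022, 0.10 and 0.23 with normexp, quantile and median), DEHP (0.079 with quantile, 0.17 with median), MEHP (0.00765 and 0.10) and TOTM (0.077 with median). With median scaling Cyp4f4 was 0.18 in EHO against Control and Cyp4f2 0.034 in EHO against DEHP. Cyp2f2 was -0.055 in TOTM against Control without the 3 arrays, and -0.44 in MEHP against DEHP without MEHP 3 and 4. Without 1 array at a time it ran from -0.055 to 1.2 in TOTM against Control, from -0.25 to 0.73 in MEHP against DEHP, from -0.024 to 1.33 in TOTM against DEHP and from -0.29 to 1.12 in TOTM against MEHP. Cyp1a2 ran from -0.24 to 0.0092 in TOTM against Control. Cyp2w1 ran from -0.21 to 0.065 in TOTM against DEHP and was 0.064 without the 3 arrays. Cyp2e1 was -0.036 in EHO against TOTM with the percentile over detected probes and -0.11 without EHO 1 and 2. Median scaling moved the median of all genes in EHO against Control by 0.54. The cause of these shifts was not tested.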

Other observations

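Markers of other cell types in the samples were read beside the P450 genes. Of the peritubular and interstitial list 3 of 7 tested genes were higher with EHO than in Control, and of 4 adrenal cortex genes 2 were lower (limma, adjusted p under 0.05), against 6.73% of all genes higher and 18.1% lower. Of the adrenal cortex list 1 gene was detected on all 20 arrays. Among genes not detected on every EHO and Control array, 39.2% were called lower. The adrenal cortex median was -1.30 with EHO, -0.86 with DEHP, -0.96 with MEHP and -0.17 with TOTM, with 0 genes called in the last 3. With EHO 1 Sertoli, 1 endothelial and 1 mesonephric duct marker were also higher than in Control, and 1 foetal Leydig, 1 gonocyte and 1 macrophage marker were lower. The foetal Leydig list had median log2 differences from control of -0.61 with DEHP and -0.62 with MEHP, with 0 of 10 genes called in each. The MEHP arrays were not alike, with summed signals of 54.0, 55.9, 249 and 149 on MEHP 1 to 4. The sums ran from 107 to 147 with DEHP and from 185 to 259 in Control.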
